A study of Mus musculus with 36 samples.

Results

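The autophagy machinery measured here comprised 35 genes of 14860 genes with a gene-level value in pancreatic islets from Gnaz knockout (KO) and wild-type (WT) mice fed a high-fat diet (HFD) or a control diet (CD). The rule for members used gene symbols: the numbered Atg genes, the Wipi, Map1lc3, Gabarap and Ulk families, and Becn1, Pik3c3, Pik3r4, Rb1cc1, Sqstm1, Nbr1, Uvrag, Ambra1, Bnip3, Bnip3l, Pink1 and Tfeb. Of the symbols that the rule covers, Atg3, Atg7 and Atg16l1 shared their array cluster with another gene and were not counted as members. Optn, Ulk3, Atg14 and Atg16l2 were not analysed here. The 4 groups of male C57BL/6N mice were measured on Affymetrix Mouse Exon arrays, each holding islet RNA of 1 mouse: KO HFD (3 arrays in the fit, of 4), KO CD (5), WT HFD (4) and WT CD (5). KO mice lacked a protein-coding exon of Gnaz in every tissue, and HFD and CD supplied 45 and 10 kcal% fat for 16 weeks from 11 weeks of age. The age at islet isolation is given as 6 months in the sample labels and as 37 to 40 weeks in the growth protocol. Values are log2 levels after robust multichip averaging (RMA), and a gene was called changed where the Benjamini-Hochberg adjusted p over all 14860 genes was under 0.05 in the limma fit.

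Autophagy delivers cytoplasm and damaged organelles to the lysosome inside a double-membraned vesicle, the autophagosome. The ULK1 kinase complex starts the process, a phosphatidylinositol 3-kinase complex built on Beclin-1 marks the membrane, and WIPI, ATG2 and ATG9 proteins bring lipid to it. Ubiquitin-like conjugation then joins ATG12 to ATG5 and attaches LC3 and GABARAP proteins to the membrane, where cargo receptors such as p62 (Sqstm1) and NIX (Bnip3l) bind them. In beta cells autophagy is known for clearing worn mitochondria and secretory granules. Transcript levels, which are all that was measured here, do not give the rate of this flow.

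The targeted gene separated the genotypes. Gnaz ran from 10.03 to 10.11 in KO HFD islets and from 10.20 to 10.56 in KO CD islets, against 11.02 to 11.26 in WT HFD islets and 11.04 to 11.15 in WT CD islets. KO HFD islet 11, the array taken as the one that the study left out, stood at 10.06. For each gene given array by array, the value of islet 11 is printed in brackets after the KO HFD values. The median of all 14860 genes was 8.34 to 8.40 in the 3 KO HFD arrays (8.52 in islet 11) and 8.51 to 8.71 in KO CD. It was 8.48 to 8.64 in WT HFD and 8.50 to 8.57 in WT CD. The median of all 23332 array clusters differed less. It was 7.94 to 7.98 in KO HFD (8.05 in islet 11), 8.03 to 8.12 in KO CD, 8.02 to 8.06 in WT HFD and 8.03 to 8.09 in WT CD. The mean of 14 acinar digestive enzymes, markers of exocrine tissue around the islets, was 13.43 to 13.83 in KO HFD (13.27 in islet 11) and 13.10 to 13.54 in KO CD, against 12.69 to 13.16 in WT HFD and 13.35 to 13.68 in WT CD. KO CD islet 13 and WT CD islet 14 stood apart in 18 leukocyte genes, with means of 9.16 and 9.33. In these bulk samples, fewer cells of a type and less RNA per cell cannot be told apart.

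**Figure D1:**
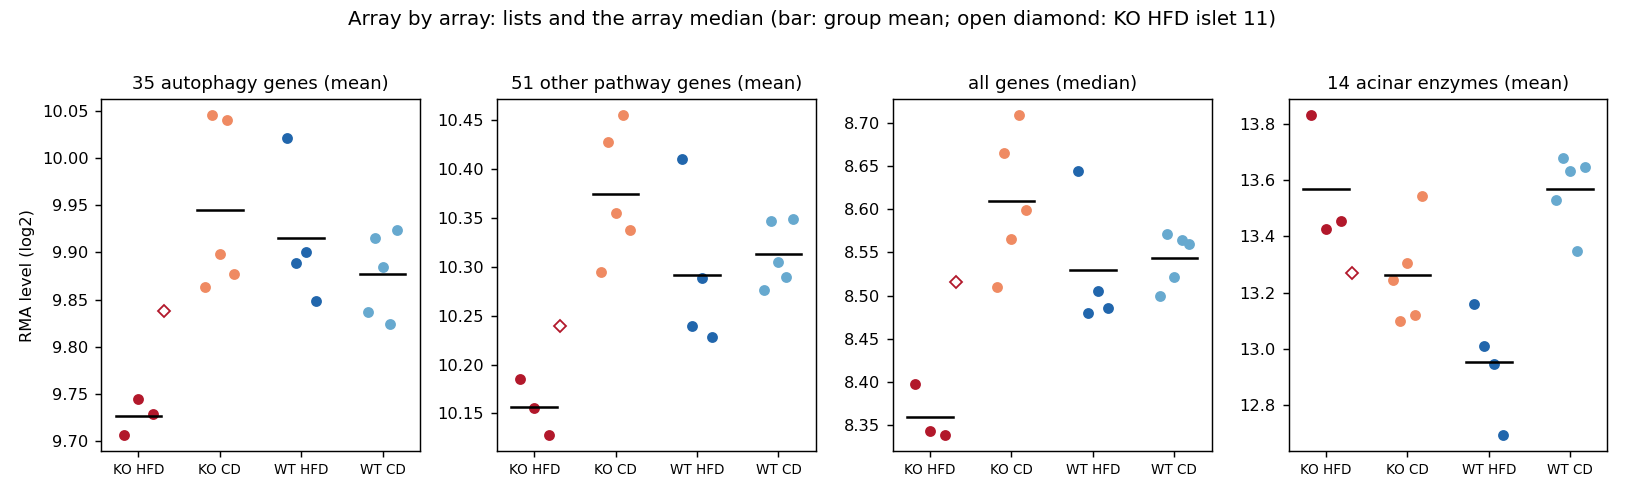
Mean log2 level of the 35 autophagy genes, of 51 other genes of the pathway and of 14 acinar enzymes, and the median of all 14860 genes, in every array, with bars at the group means. The 3 KO HFD arrays in the fit lie between 9.71 and 9.74 for the autophagy genes, below every other array, and also have the lowest medians of all genes.

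In KO HFD compared with WT HFD islets, 18 of the 35 autophagy genes were lower and none was higher. Across all genes 29.4% were called in this comparison, 28.1% lower and 1.32% higher, so the fall of autophagy genes took place within a general fall of the deposited values. The median difference was −0.19 over the 35 genes and −0.13 over all genes. With the dimmest 33.3% of genes left out, 21 of 33 members and 47.3% of the remaining genes were called. The medians were then −0.19 over the members and −0.18 over the remaining genes. By role, 6 of 7 conjugation genes (Atg10, Atg12, Atg5 and the 4 Atg4 genes) were lower. So were 4 of 5 cargo receptors and mitophagy genes, 3 of 6 initiation kinase genes and 3 of 6 lipid transfer and phosphoinositide-binding genes. Only 1 of 5 genes of the phosphatidylinositol 3-kinase complex and 1 of 5 genes of the Atg8 family passed the test. Over the 17 arrays, 22 of the 35 genes (62.9%) had KO HFD values wholly below those of WT HFD, against 36.5% of all genes. The 18 called differences ran from −0.56 to −0.17 on the log2 scale. With islet 11 included the count was 10, with 21.2% of all genes called, and Atg101, Atg12, Atg4d, Atg9a, Becn1, Bnip3l, Gabarapl1 and Sqstm1 no longer passed (adjusted p between 0.064 and 0.21). It was 7 without WT HFD islet 7 (17.7% of all genes, close to the members' share), 11 without KO HFD islet 10 (22.1%), 10 without islet 17 (19.8%) and 10 without islet 18 (19.5%). Marker genes of cell types differed in the same comparison. Lower were 10 of 12 endothelial genes (median −0.26), 3 of 5 alpha and delta cell genes (median −0.28) and 5 of 12 beta cell genes (median −0.16). Only 1 of 18 leukocyte genes and 2 of 12 stellate cell and fibroblast genes were lower (both medians −0.11). Of 6 duct genes 0 were lower and 1 was higher (median 0.08), and 13 of 14 acinar enzymes were higher. The part of cell composition in the fall of the autophagy genes was not tested beyond the acinar covariate given below.

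**Figure D2:**
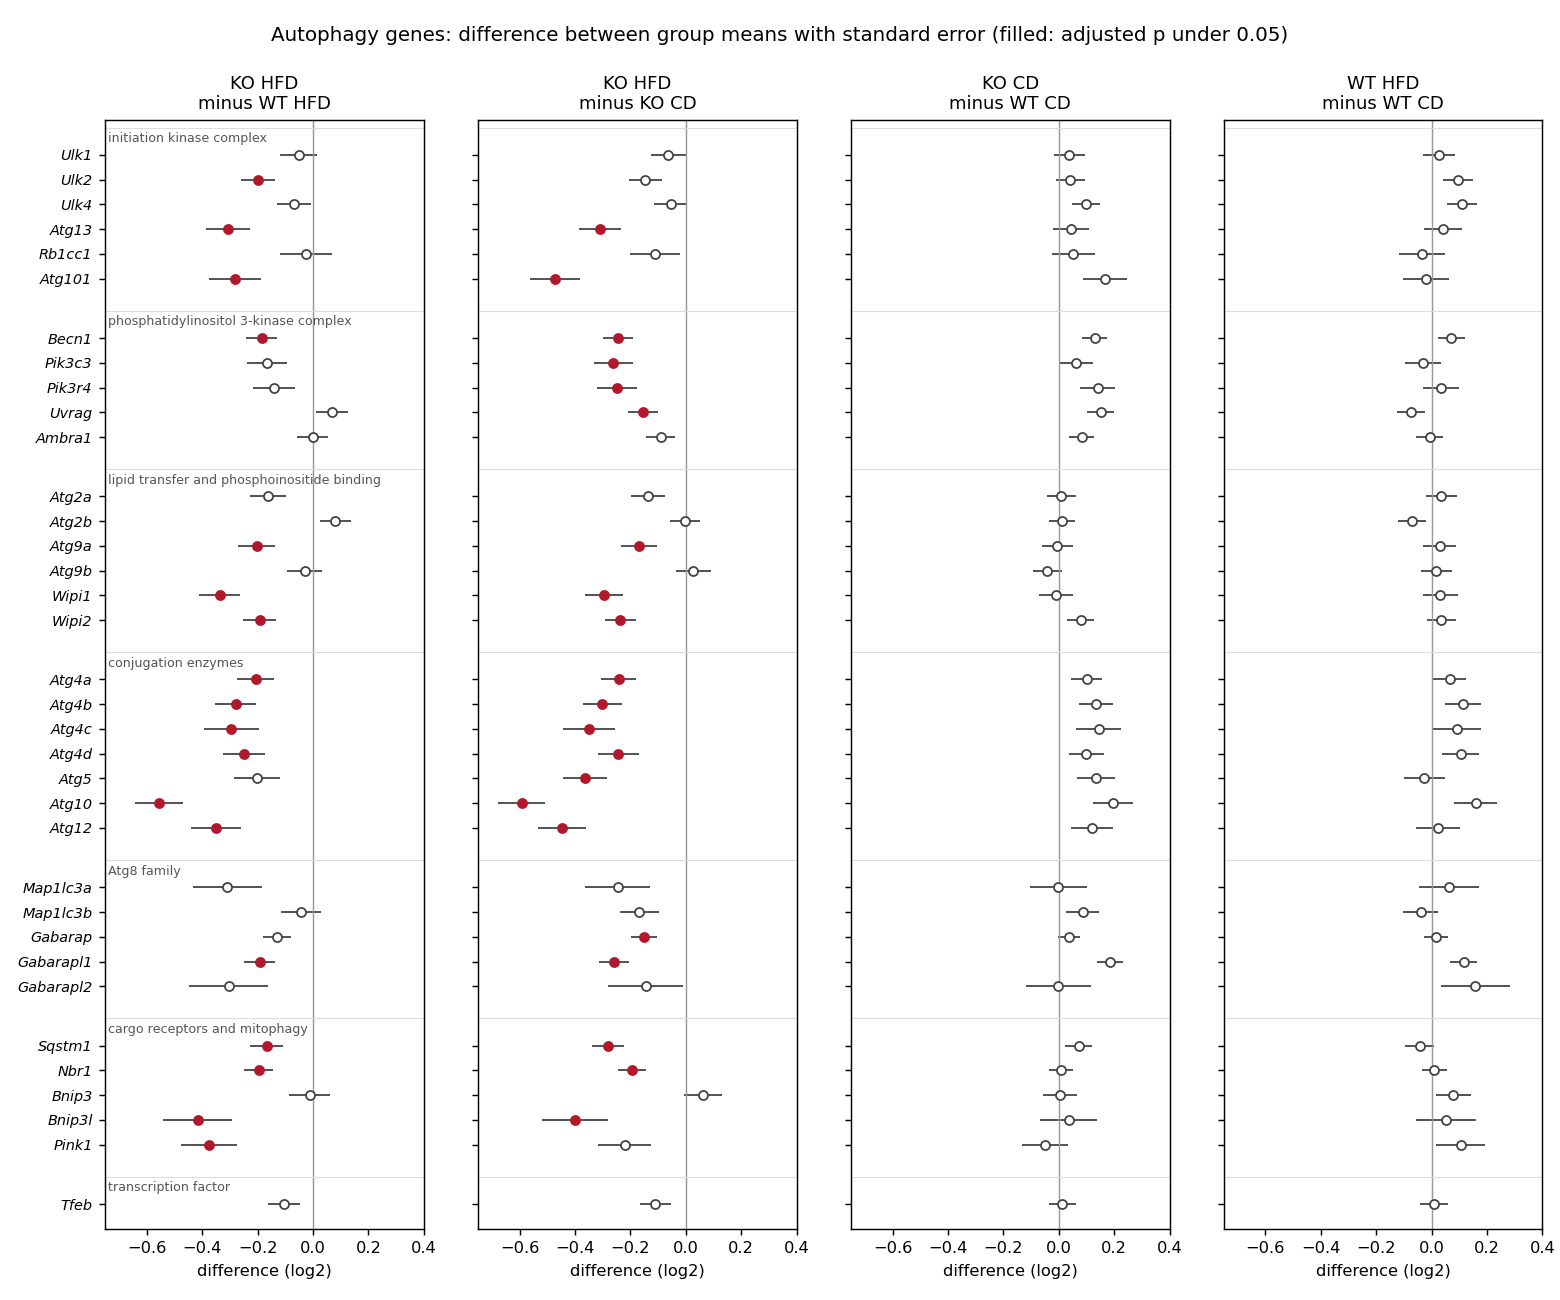
Difference between group means (log2, horizontal axis) with its standard error for the 35 autophagy genes, ordered by role, in the 4 pairwise comparisons. The role marked as conjugation enzymes holds the conjugation genes Atg10, Atg12, Atg5 and the 4 Atg4 genes. Filled points have an adjusted p under 0.05: 18 are filled for KO HFD minus WT HFD, 21 for KO HFD minus KO CD and none in the 2 comparisons on the right.

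The conjugation genes held the largest change. Atg10, the E2-like enzyme that transfers ATG12 to ATG5, had levels of 9.99, 10.04 and 10.13 in KO HFD islets (10.43 in islet 11), against 10.75, 10.54, 10.59 and 10.55 in WT HFD islets. All 3 KO HFD values lay well below the lowest WT HFD value, and islet 11 lay between them. The difference was −0.56 (SE 0.087, adjusted p = 7.9e-04), a KO HFD level 0.68 times that of WT HFD. With islet 11 included it was −0.46 (adjusted p = 0.0081). Atg12, the ubiquitin-like protein that Atg10 acts on, had levels of 8.71, 8.83 and 8.76 in KO HFD islets (9.12 in islet 11), against 9.29, 9.00, 9.16 and 9.00 in WT HFD islets. The groups again did not overlap, while islet 11 fell inside the WT HFD range. Atg12 differed by −0.35 (SE 0.090, adjusted p = 0.011), and with islet 11 included by −0.26 (adjusted p = 0.064). The 4 Atg4 genes encode the proteases that trim LC3 and GABARAP proteins before their conjugation. They fell by 0.21 (Atg4a), 0.28 (Atg4b), 0.30 (Atg4c) and 0.25 (Atg4d), with adjusted p-values between 0.012 and 0.035, and of these only Atg4c overlapped between the groups. Atg5, which accepts ATG12, differed by −0.20 and did not pass (adjusted p = 0.078). The clusters that Atg16l1, Atg7 and Atg3 share with another gene differed by −0.17, −0.18 and −0.17 (adjusted p = 0.037, 0.036 and 0.22). Their signal cannot be assigned to 1 gene.

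Because many members moved together, their promoter windows were searched for the E-box CACGTG, bound by TFEB and other basic helix-loop-helix factors, and for the cyclic AMP response element TGACGTCA, since Gz inhibits adenylyl cyclase. Windows from RefSeq (build GRCm38.p6), 250 bases before to 50 bases after a gene's start, matched 29 of the 35 genes. Both motifs are palindromes, so 1 search covers both strands, and neither contains the other; matches may overlap. The E-box was found in 2 of the 29 genes (6.90%) and in 10.1% of 11894 tested genes with a window, and the response element in 1 gene (3.45%) and in 2.72% of all genes. The longer E-box TCACGTGA, which contains CACGTG and is the core of the TFEB target motif, was in none of the 29 genes and in 1.70% of all genes. The windows of Atg10 and of the 2 genes with a match are printed because they set the gene with the largest fall, which has neither motif, beside Atg5 and Bnip3. Matches are in capitals, and everything else is in lower case, 5′ to 3′ on the gene's own strand: Atg10 at chr13:91223938-91224237 (minus), Atg5 at chr10:44268089-44268388 (plus) with an E-box and then a response element, and Bnip3 at chr7:138909457-138909756 (minus) with an E-box.
Atg10: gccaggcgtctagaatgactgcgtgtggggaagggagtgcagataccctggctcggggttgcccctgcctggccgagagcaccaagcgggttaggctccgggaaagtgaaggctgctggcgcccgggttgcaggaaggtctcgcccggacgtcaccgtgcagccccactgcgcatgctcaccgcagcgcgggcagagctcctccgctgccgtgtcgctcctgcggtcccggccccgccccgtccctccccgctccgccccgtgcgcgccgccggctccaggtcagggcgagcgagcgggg
Atg5: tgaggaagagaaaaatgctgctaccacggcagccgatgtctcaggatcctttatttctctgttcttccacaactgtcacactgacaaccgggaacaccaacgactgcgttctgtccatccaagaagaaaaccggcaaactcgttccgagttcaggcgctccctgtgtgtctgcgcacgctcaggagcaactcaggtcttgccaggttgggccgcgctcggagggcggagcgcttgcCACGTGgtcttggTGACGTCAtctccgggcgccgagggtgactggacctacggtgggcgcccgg
Bnip3: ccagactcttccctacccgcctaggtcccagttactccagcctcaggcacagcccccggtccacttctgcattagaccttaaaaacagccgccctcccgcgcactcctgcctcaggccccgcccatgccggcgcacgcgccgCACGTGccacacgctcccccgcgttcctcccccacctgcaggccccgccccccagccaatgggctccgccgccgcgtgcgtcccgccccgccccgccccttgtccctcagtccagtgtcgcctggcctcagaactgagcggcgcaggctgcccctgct

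Bnip3, a mitochondrial receptor for autophagy with an E-box in its window, differed by −0.01 between KO HFD and WT HFD islets (SE 0.073, adjusted p = 0.93). A match or its absence in these windows is a description of the letters only.

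Among cargo receptors and mitophagy genes, Bnip3l and Pink1 had the largest differences. Bnip3l, which encodes the mitochondrial receptor NIX, had levels of 8.19, 8.77 and 8.26 in KO HFD islets (8.76 in islet 11), against 8.91, 8.90, 8.76 and 8.73 in WT HFD islets. KO HFD islets 10 and 18 were far below WT HFD, but islet 17 lay within the WT HFD range, so the groups overlapped. The difference was −0.42 (SE 0.12, adjusted p = 0.021), and it no longer passed without KO HFD islet 10, without islet 18 or without WT HFD islet 7. Pink1, the kinase that marks damaged mitochondria, had levels of 9.93, 10.01 and 9.99 in KO HFD islets (10.20 in islet 11), against 10.43, 10.44, 10.23 and 10.29 in WT HFD islets. The KO HFD values were close together and below all WT HFD values, a difference of −0.38 (SE 0.100, adjusted p = 0.012). Sqstm1, encoding the ubiquitin-binding receptor p62, had levels of 12.26, 12.33 and 12.27 in KO HFD islets (12.39 in islet 11), against 12.52, 12.36, 12.46 and 12.47 in WT HFD islets. These groups were separate but close, with a difference of −0.17 (SE 0.059, adjusted p = 0.044). Nbr1, a second ubiquitin-binding receptor, fell by 0.20 (adjusted p = 0.012).

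The initiation kinases did not move as a block. Ulk1, the principal kinase, had levels of 10.43, 10.36 and 10.35 in KO HFD islets (10.44 in islet 11), against 10.41, 10.48, 10.53 and 10.32 in WT HFD islets. The groups overlapped fully, and the difference was −0.05 (SE 0.067, adjusted p = 0.60). Atg101, which stabilises ATG13 in the complex, had levels of 8.65, 8.72 and 8.86 in KO HFD islets (9.14 in islet 11), against 9.19, 8.95, 9.08 and 8.90 in WT HFD islets. All 3 KO HFD values were lower, islet 11 was inside the WT HFD range, and the difference was −0.28 (SE 0.094, adjusted p = 0.033). Atg13 itself fell by 0.31 (adjusted p = 0.010) and Ulk2 by 0.20 (adjusted p = 0.025). The scaffold Rb1cc1 and Ulk4, a divergent relative counted in this role by its symbol only, differed by −0.02 and −0.07 and did not pass.

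Becn1, encoding Beclin-1, was the only gene of the phosphatidylinositol 3-kinase complex called against WT HFD. Its levels were 10.05, 10.10 and 10.09 in KO HFD islets (10.27 in islet 11), against 10.34, 10.30, 10.22 and 10.22 in WT HFD islets. The KO HFD arrays formed a narrow band below WT HFD, whereas islet 11 was inside its range, and the difference was −0.19 (SE 0.056, adjusted p = 0.021). The catalytic and regulatory subunits Pik3c3 and Pik3r4 differed by −0.17 and −0.14 (adjusted p = 0.096 and 0.17). Uvrag, a Beclin-1 partner, and Ambra1, a Beclin-1 regulator, differed by 0.07 and −0.0012 (adjusted p = 0.40 and 0.99). Downstream of this complex, the phosphoinositide-binding genes Wipi1 and Wipi2 fell by 0.34 and 0.19 (adjusted p = 0.0040 and 0.024), and the lipid scramblase gene Atg9a fell by 0.20 (adjusted p = 0.032). The lipid transfer gene Atg2b differed by 0.08 (adjusted p = 0.31).

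In the Atg8 family, the level of Gabarapl1 fell by 0.19 in KO HFD compared with WT HFD islets (adjusted p = 0.019), and the other members did not pass. Map1lc3a, an LC3 gene, had levels of 9.82, 9.58 and 9.60 in KO HFD islets (9.77 in islet 11), against 10.17, 9.96, 10.00 and 9.78 in WT HFD islets. KO HFD islet 10 reached into the WT HFD range, and the difference was −0.31 with a large error (SE 0.12, adjusted p = 0.070). Map1lc3b, the LC3 gene most used as an autophagosome marker, had levels of 11.80, 11.66 and 11.80 in KO HFD islets (11.91 in islet 11), against 11.82, 11.82, 11.81 and 11.74 in WT HFD islets. The groups overlapped, with a difference of −0.04 (SE 0.072, adjusted p = 0.70). Gabarap had levels of 13.33, 13.39 and 13.39 in KO HFD islets (13.47 in islet 11), against 13.58, 13.45, 13.45 and 13.51 in WT HFD islets. The groups were separate by a small margin, and the difference of −0.13 did not pass (SE 0.050, adjusted p = 0.059). Gabarapl2, a GABARAP relative, had the largest error of the family (difference −0.30, SE 0.14, adjusted p = 0.12).

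Tfeb, the transcription factor that turns on lysosomal and autophagy genes, had levels of 8.29, 8.15 and 8.32 in KO HFD islets (8.33 in islet 11), against 8.34, 8.36, 8.41 and 8.32 in WT HFD islets. Islets 10 and 18 nearly touched the WT HFD values and only islet 17 was clearly lower. The difference of −0.11 did not pass (SE 0.058, adjusted p = 0.18).

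**Figure D3:**
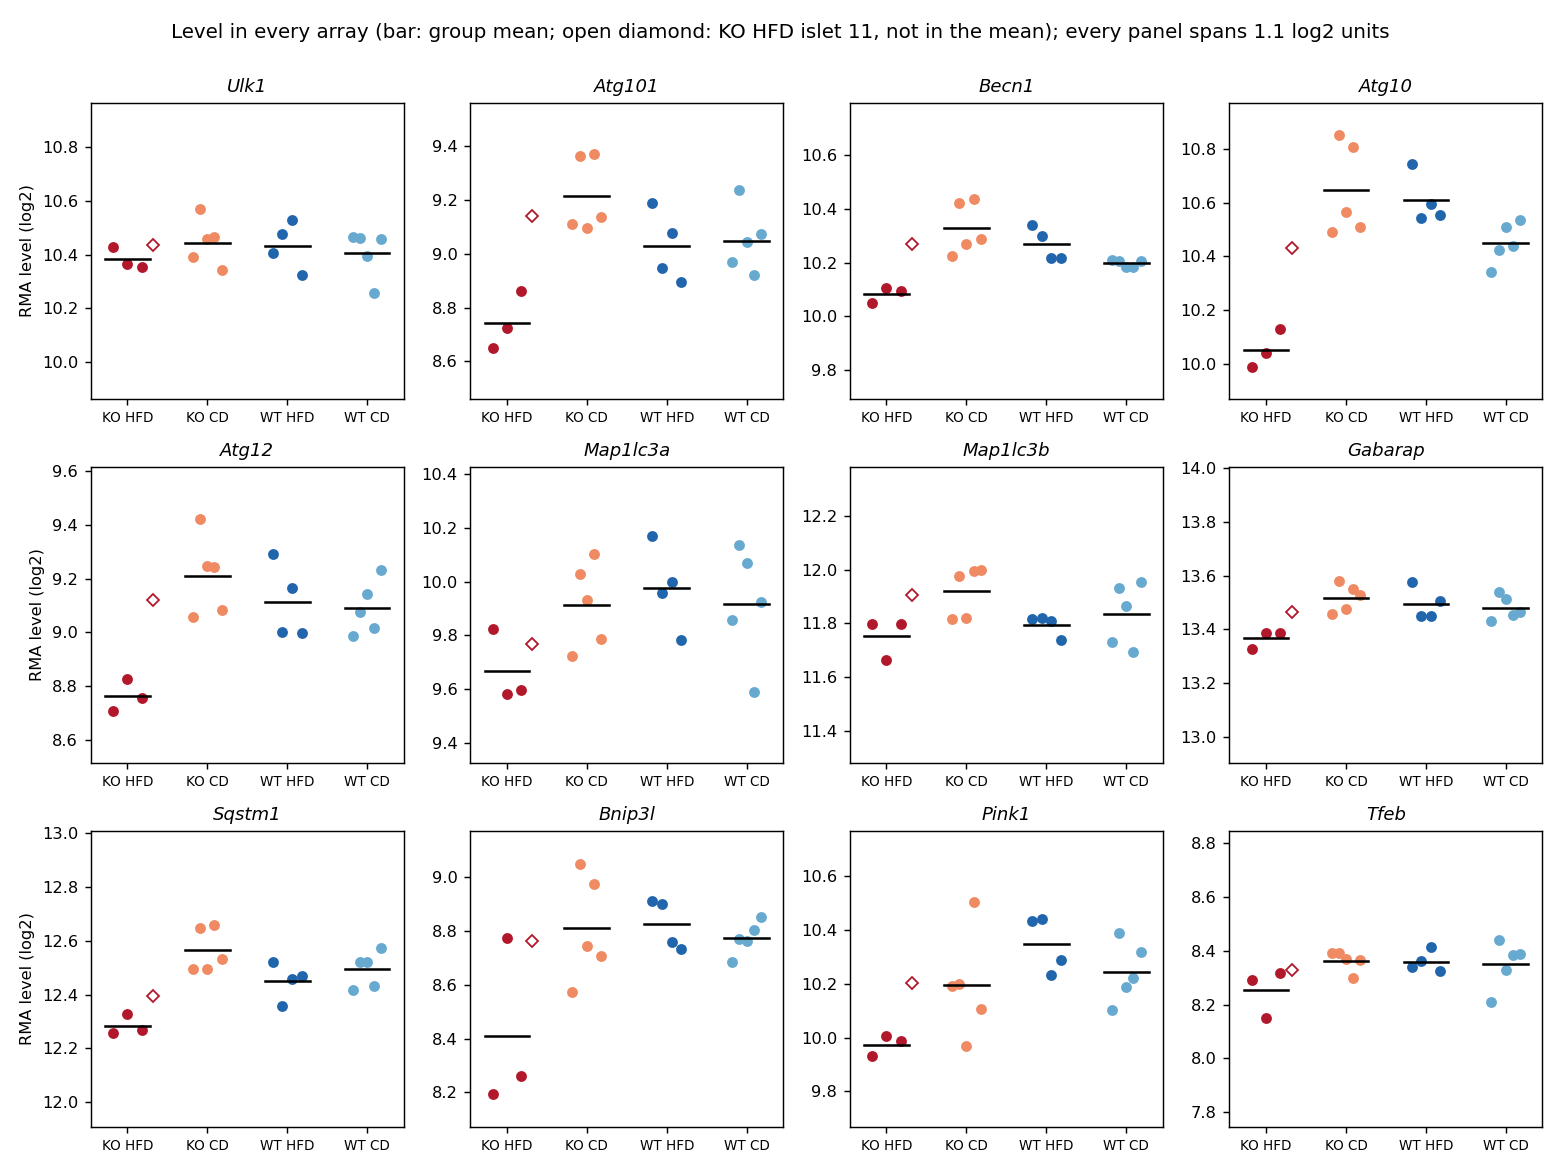
Log2 level of 12 autophagy genes in every array (vertical axis, all panels 1.1 units high), with group means as bars and KO HFD islet 11 as an open diamond. Atg10 in the 3 KO HFD arrays of the fit lies between 9.99 and 10.13, below every other array, while the Ulk1 values of all 4 groups overlap.

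How far these calls depended on the median of the 14860 genes was measured by centring each array on that median. Its mean was 8.36 in KO HFD and 8.53 in WT HFD arrays. For the median of all 23332 clusters the means were 7.96 and 8.03. In KO HFD compared with WT HFD islets, centring moved every gene upward by 0.17, and only Atg10 was still lower (−0.39, adjusted p = 0.0028), while Uvrag (0.24, adjusted p = 0.010) and Atg2b (0.25, adjusted p = 0.030) were called higher. The share of all genes called was then 10.3%. Quantile normalization gave 2 lower genes, Atg10 (−0.35, adjusted p = 0.0031) and Gabarap (−0.18, adjusted p = 0.017), and 4 higher genes, Ambra1, Atg2b, Bnip3 and Uvrag, with 11.0% of all genes called. The calls for the other 17 lower genes therefore held only on the deposited scale, and 13 of the 35 differences changed sign after centring. Of the 7 members that passed with every single array left out in turn (Atg10, Atg12, Atg13, Atg4b, Nbr1, Pink1 and Wipi1), Atg10 alone also passed under both scalings. Both scalings were fitted without islet 11 only. Relative to the array median, Atg10 was 1.92 in islet 11 and 1.59, 1.70 and 1.79 in the other KO HFD arrays. It was 2.06 to 2.10 in WT HFD and 1.91 to 2.19 in KO CD arrays. With the acinar enzyme mean as a covariate no member passed in this comparison (Atg10 −0.46, SE 0.14, adjusted p = 0.079) and 0.673% of all genes were called. The differences themselves stayed of similar size in that fit, with a median of −0.19 over the members and 30 of 35 negative, while their standard errors grew. The enzyme means of KO HFD and WT HFD arrays did not overlap.

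**Figure D4:**
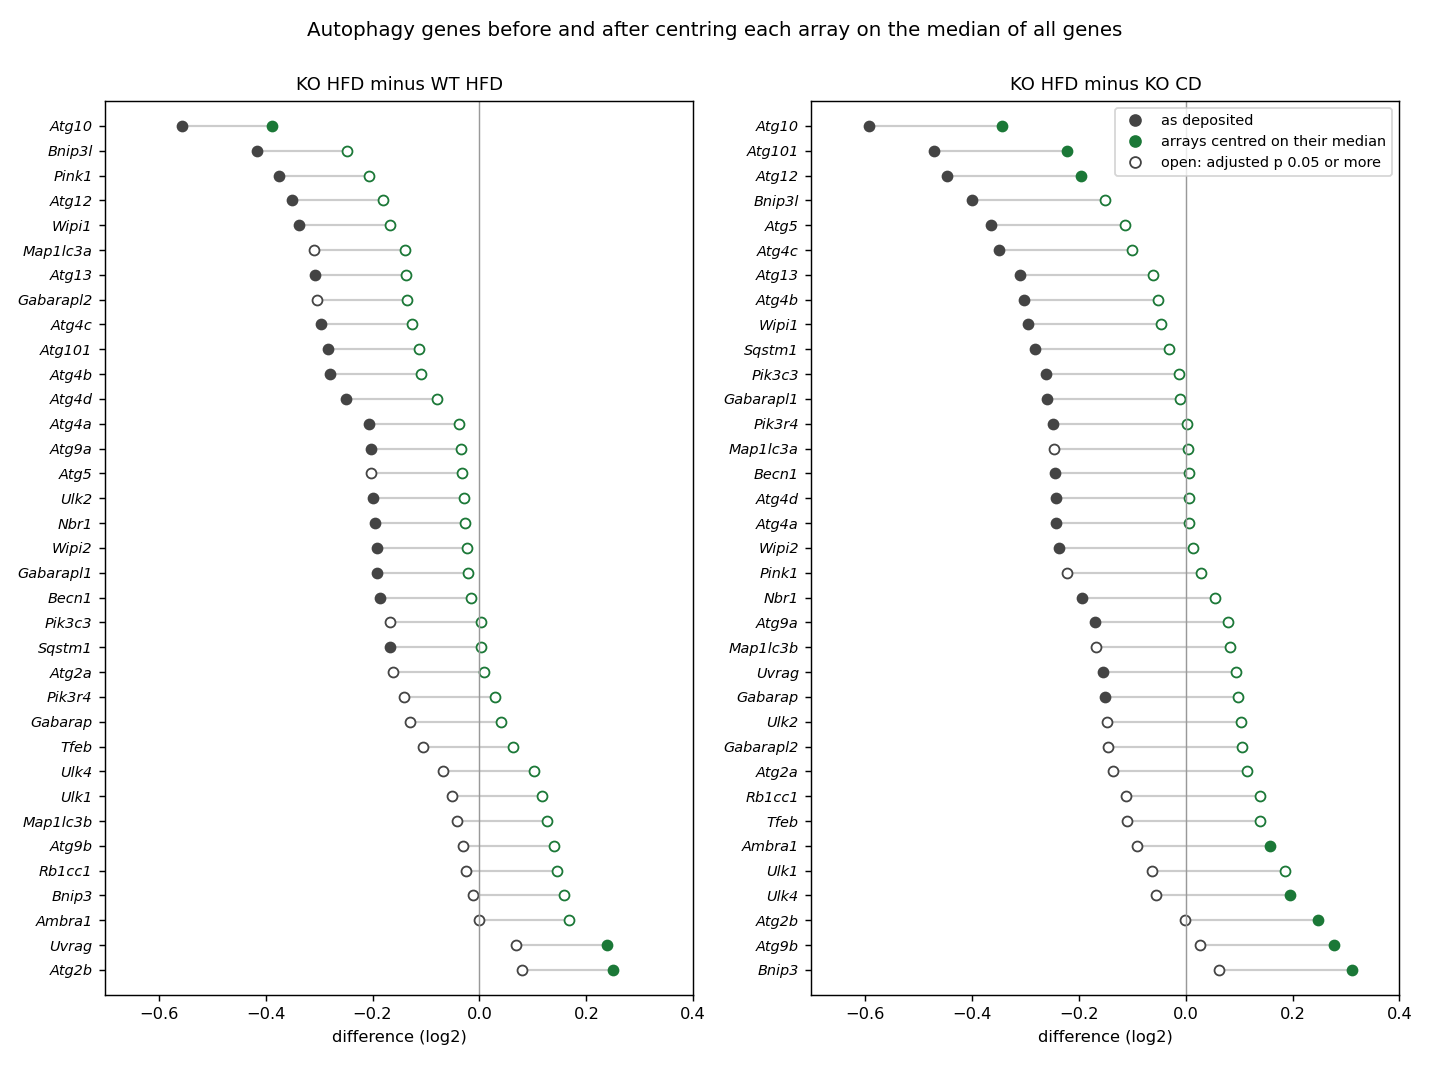
Difference (log2, horizontal axis) of each autophagy gene as deposited and after centring each array on its median, for KO HFD minus WT HFD and KO HFD minus KO CD, with genes sorted by the deposited difference. Filled points have an adjusted p under 0.05; after centring Atg10 is the only filled point below 0 in the panel against WT HFD, and Atg10, Atg101 and Atg12 are those in the panel against KO CD.

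Diet within the knockout was compared next. In KO HFD compared with KO CD islets, 21 of the 35 genes were lower, none was higher and 14 did not pass, with 46.1% of all genes called, 44.6% lower and 1.45% higher. The median difference was −0.24 over the members and −0.18 over all genes. All 7 conjugation genes were lower, as were 4 of 5 genes of the phosphatidylinositol 3-kinase complex. So were 3 of 6 lipid transfer and phosphoinositide-binding genes and 3 of 5 cargo receptors and mitophagy genes. Of the initiation kinase genes 2 of 6 were lower, and of the Atg8 family 2 of 5. KO HFD values lay wholly below KO CD for 22 genes (62.9%), against 40.4% of all genes. This comparison uses the same 3 KO HFD arrays as the one against WT HFD, so the 2 sets of calls are not independent. Of 5 alpha and delta cell genes all were lower here (median −0.48), as were 8 of 12 endothelial and 4 of 12 beta cell genes. Of 6 duct genes 3 were lower, of 18 leukocyte genes 2, and of 12 stellate cell and fibroblast genes 0. Higher were 7 of 14 acinar enzymes. With the acinar covariate 20 members were lower, with 38.7% of all genes called. Of the 21 calls 18 were kept in that fit. Bnip3l, Gabarap and Uvrag were lost, and Map1lc3a and Map1lc3b were gained. With islet 11 included 20 were lower, with Atg4d and Atg9a lost and Ulk2 gained, and 42.6% of all genes were called.

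Atg10 had levels of 10.49, 10.85, 10.57, 10.81 and 10.51 in KO CD islets, all above the 3 KO HFD values and above islet 11. The difference of KO HFD from KO CD was −0.59 (SE 0.084, adjusted p = 4.4e-04), and −0.50 with islet 11 included (adjusted p = 0.0014). Atg101 had levels of 9.11, 9.36, 9.10, 9.37 and 9.14 in KO CD islets, and KO HFD was lower by 0.47 on the log2 scale (SE 0.090, adjusted p = 0.0011). Its KO CD values fell into a lower band of 3 arrays and a higher pair, islets 2 and 12, and all were above the 3 KO HFD values. Atg12 had levels of 9.06, 9.42, 9.25, 9.24 and 9.08 in KO CD islets, a KO HFD difference of −0.45 (SE 0.087, adjusted p = 0.0011). After median centring these 3 genes were still lower (Atg10 −0.34, Atg101 −0.22, Atg12 −0.20, adjusted p = 0.0036, 0.031 and 0.046), and Ambra1, Atg2b, Atg9b, Bnip3 and Ulk4 were called higher, with 29.6% of all genes called. Quantile normalization kept Atg10 and Atg101 as lower (adjusted p = 0.0031 and 0.049) and called 7 genes higher, Ambra1, Atg2a, Atg2b, Bnip3, Ulk1, Ulk2 and Ulk4, with 16.3% of all genes called. Under either scaling, 9 of the 21 called falls had a difference above 0, none of which passed.

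Other members differed less. Bnip3l had levels of 8.57, 9.05, 8.74, 8.98 and 8.71 in KO CD islets and differed by −0.40 in KO HFD (SE 0.12, adjusted p = 0.012), with KO HFD islet 17 inside the KO CD range. The cluster that Bnip3l shares with Zranb3 differed by −0.25 (adjusted p = 0.041). Sqstm1 had levels of 12.49, 12.65, 12.49, 12.66 and 12.53 in KO CD islets and differed by −0.28 (SE 0.057, adjusted p = 0.0014). Becn1, at 10.22, 10.42, 10.27, 10.44 and 10.29 in KO CD islets, differed by −0.24 (SE 0.053, adjusted p = 0.0020). Both sets of KO CD values were wholly above KO HFD. Gabarap had levels of 13.46, 13.58, 13.47, 13.55 and 13.53 in KO CD islets and differed by −0.15 (SE 0.047, adjusted p = 0.016). Pink1, at 10.19, 10.20, 9.97, 10.51 and 10.11 in KO CD islets, differed by −0.22 and did not pass (SE 0.095, adjusted p = 0.068). KO CD islet 3 was as low in Pink1 as the KO HFD arrays and islet 12 far higher, the widest spread of the gene in any group. Map1lc3a had levels of 9.72, 10.03, 9.93, 10.10 and 9.78 in KO CD islets and Map1lc3b 11.81, 11.98, 11.82, 11.99 and 12.00, with KO HFD differences of −0.25 and −0.17 (adjusted p = 0.10 and 0.056). The Map1lc3b groups were separate all the same. Ulk1, at 10.39, 10.57, 10.46, 10.46 and 10.34, and Tfeb, at 8.39, 8.39, 8.37, 8.30 and 8.37 in KO CD islets, differed by −0.06 and −0.11 (adjusted p = 0.46 and 0.12).

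On the control diet, loss of Gnaz was not accompanied by a called change in any of the 35 genes, and 0.155% of all genes were called. In KO CD compared with WT CD islets, 7 of the 35 (20.0%, against 15.6% of all genes) had an unadjusted p under 0.05, and 29 (82.9%, against 65.2%) had a positive difference, with a median of 0.06 over the members and 0.04 over all genes. The smallest adjusted p was that of Gabarapl1 (0.18, SE 0.046, adjusted p = 0.13). KO CD and WT CD values did not overlap for Gabarapl1 and Becn1, 5.71% of the members, against 3.39% of all genes. Becn1 was 10.21, 10.21, 10.19, 10.18 and 10.21 in WT CD islets, a narrow range, and its difference was 0.13 (SE 0.046, adjusted p = 0.23). Atg10, at 10.34, 10.42, 10.51, 10.44 and 10.54 in WT CD islets, differed by 0.20 (SE 0.072, adjusted p = 0.24).

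High-fat feeding of WT mice also gave no called member, with 0.188% of all genes called. In WT HFD compared with WT CD islets, 1 of the 35 genes, Gabarapl1, had an unadjusted p under 0.05 (0.12, SE 0.049, adjusted p = 0.51), against 8.48% of all genes, and the median difference was 0.03 over the members and 0.01 over all genes. Atg10 differed by 0.16 (SE 0.077, adjusted p = 0.61), and its 4 WT HFD values were just above the highest WT CD value. Becn1 and Atg10 were the 2 genes without overlap between these groups, 5.71% of the members, against 4.93% of all genes. In WT CD islets, Sqstm1 ran from 12.42 to 12.57, Map1lc3b from 11.69 to 11.95, Gabarap from 13.43 to 13.54 and Ulk1 from 10.26 to 10.47. Atg12 ran from 8.99 to 9.23, Atg101 from 8.92 to 9.24, Bnip3l from 8.68 to 8.85, Pink1 from 10.10 to 10.39, Map1lc3a from 9.59 to 10.13 and Tfeb from 8.21 to 8.44. Each of these ranges overlapped that of WT HFD.

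The diet effect was set against genotype by the interaction term, the KO HFD to KO CD difference minus the WT HFD to WT CD difference. It was called negative for 18 of the 35 genes and positive for none, with 32.6% of all genes called, 31.2% negative and 1.45% positive. The median was −0.27 over the members and −0.18 over all genes. With the dimmest 33.3% of genes left out, 21 of 33 members and 52.0% of the remaining genes were called. The medians were then −0.27 over the members and −0.25 over the remaining genes. All 7 conjugation genes had a called negative term, led by Atg10 (−0.75, SE 0.11, adjusted p = 0.0025), Atg12 (−0.47, adjusted p = 0.0098) and Atg4c (−0.44, adjusted p = 0.019). For the clusters that Atg16l1, Atg7 and Atg3 share with another gene the terms were −0.28, −0.16 and −0.24 (adjusted p = 0.014, 0.14 and 0.16). Bnip3l (−0.45, adjusted p = 0.042) and Atg101 (−0.45, adjusted p = 0.013) were of similar size. The cluster that Bnip3l shares with Zranb3 had a term of −0.25 (adjusted p = 0.15). After median centring only Atg10 kept a called negative term (−0.52, adjusted p = 0.0053), and Atg2b had a positive one (0.31, adjusted p = 0.046). The share of all genes called was then 8.0%. With the acinar covariate no member passed and 0.0% of all genes were called, while the median over the members was −0.26. With islet 11 included 13 terms passed, with 23.9% of all genes called. Since the KO HFD arrays enter this term, it repeats much of what the comparisons above hold.

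Other genes of the pathway, from a list of 59 symbols covering nutrient-sensing kinases, membrane and fusion factors, further receptors and transcription factors, were measured for 51. In KO HFD compared with WT HFD islets 22 were lower and 1 higher, where 28.1% of all genes were lower. Compared with KO CD islets 36 were lower and 1 higher, where 44.6% of all genes were lower. Their median differences were −0.18 and −0.26, and those of all genes −0.13 and −0.18. With the dimmest 33.3% of genes left out, the medians of the remaining genes were −0.18 and −0.24. With the acinar covariate none passed against WT HFD, and 33 were lower and 1 higher against KO CD. The shares of all genes called were then 0.673% and 38.7%. No gene of the list was called in KO CD compared with WT CD or in WT HFD compared with WT CD islets. Rheb, the GTPase that activates mTORC1, averaged 10.84 ± 0.07 in KO HFD islets (SD, n = 3) and 11.18 ± 0.10 in WT HFD islets (SD, n = 4), a difference of −0.34 (adjusted p = 0.0028). Stx17, the syntaxin that fuses autophagosomes with lysosomes, averaged 9.46 ± 0.08 in KO HFD islets and 9.82 ± 0.08 in WT HFD islets (SD), a difference of −0.36 (adjusted p = 0.0035). Wdr45b, a relative of the WIPI proteins, differed by −0.32 (adjusted p = 0.0029). In these 3 genes the KO HFD and WT HFD values did not overlap. Against KO CD islets the smallest adjusted p-values were those of Vps41, a tethering factor for fusion with the lysosome (−0.43, adjusted p = 4.4e-04), Wdr45b (−0.38, adjusted p = 5.3e-04) and Rheb (−0.38, adjusted p = 7.2e-04). In the interaction they were those of Vps41 (−0.50, adjusted p = 0.0029), Bcl2l13, a mitophagy receptor (−0.48, adjusted p = 0.0052), and Rheb (−0.41, adjusted p = 0.0055). Median centring left 2 genes of the list lower and 5 higher against WT HFD, and 3 lower and 6 higher against KO CD. After centring, 10.3% and 29.6% of all genes were called.

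The 2 genes of that list that were higher are named here although they were chosen after their values were seen. Retreg1, a receptor for autophagy of the endoplasmic reticulum, averaged 10.60 ± 0.72 in KO HFD islets (range 10.14 to 11.43, islet 11 at 10.00) and 9.50 ± 0.19 in WT HFD islets (range 9.31 to 9.67), a difference of 1.09 (adjusted p = 0.0073). In KO CD islets it averaged 10.20 ± 0.34 and in WT CD islets 10.56 ± 0.26. WT HFD differed from WT CD by −1.06, which did not pass (adjusted p = 0.096), and the interaction term was 1.45 (adjusted p = 0.0075). The acinar enzyme mean was 13.57 in KO HFD and 13.26 in KO CD, against 12.95 in WT HFD and 13.57 in WT CD, so it was also lowest in WT HFD. With the acinar covariate Retreg1 no longer passed, either against WT HFD or in the interaction. In those fits only 0.673% and 0.0% of all genes were called. Whether acinar content accounts for the Retreg1 differences was not tested. Wdfy3, a large adaptor for aggregate clearance, was higher in KO HFD than in KO CD islets, with 10.19 ± 0.06 and 9.92 ± 0.09, a difference of 0.27 (adjusted p = 0.0050).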

How the data were processed

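Total RNA from the hand-picked islets of each mouse (about 300 islets per mouse) was hybridised to exon arrays, and the deposited gene-level log2 values were made by the authors with RMA in Affymetrix Expression Console 1.3, which normalizes between arrays. Of 23332 clusters, 14996 had 1 gene symbol, 1019 had several and 7317 had none; the brightest single-symbol cluster was kept for each of 14860 genes. The number of arrays limits the precision, and each p-value measures the spread between mice. The study left out 1 KO HFD array without naming it; islet 11 was taken as that array with the study's results known, so counts over all 18 arrays, and the calls that change with them, are also given. One linear model over 17 arrays (limma 3.58.1 in R 4.3.3, moderated variances) gave 4 pairwise comparisons and the interaction, with Benjamini-Hochberg adjustment over all genes. The code was tested on simulated data. The members and lists were chosen with earlier results of these data known. Values in every KO HFD, WT HFD and KO CD array are given for Atg10, Ulk1, Becn1, Map1lc3a, Map1lc3b, Gabarap, Sqstm1 and Tfeb. They are also given for the 4 called members with the largest fall per comparison. WT CD values are given by array for Atg10 and Becn1 and as ranges for the others. From the other pathway genes, the 3 with the smallest adjusted p per comparison are given. Alternatives were other array sets, median centring, quantile normalization, other variance models, array weights, a filter on dim genes, the mean of several clusters, the run of islet numbers and an acinar covariate. Exon-level tables were not used. Figures were drawn with matplotlib 3.10.9.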

Additional observations from a re-analysis of the deposited data

Results flagged for a closer look

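The interaction of genotype and diet passed the limma test for 18 autophagy genes, meaning that the difference of KO HFD from KO CD was more negative than that of WT HFD from WT CD. Among conjugation genes the terms were −0.75 for Atg10, −0.47 for Atg12, −0.44 for Atg4c, −0.42 for Atg4b, −0.35 for Atg4d, −0.34 for Atg5 and −0.31 for Atg4a. Among initiation kinase genes they were −0.45 for Atg101, −0.35 for Atg13 and −0.24 for Ulk2. Becn1 and Pik3r4 of the phosphatidylinositol 3-kinase complex had −0.31 and −0.28, and the phosphoinositide-binding genes Wipi1 and Wipi2 had −0.33 and −0.27. Gabarapl1 had −0.38, and the cargo receptors Bnip3l, Sqstm1 and Nbr1 had −0.45, −0.24 and −0.20. The same term was called negative for 31.2% of all genes.

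In 5 of 105 sets of 4 or 5 arrays, 1 array stood apart from the rest of its group, and chance gives about 1 in 20. These were Tfeb in KO CD islet 12 (8.30), Map1lc3b in WT HFD islet 16 (11.74), Pik3c3 and Wipi2 in WT HFD islet 7 (9.27 and 10.63), and Atg9a in WT CD islet 14 (9.33).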

How the results depend on the processing

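In KO HFD compared with WT HFD, 18 autophagy genes were called over 17 arrays, with 29.4% of all genes called. The count was 10 with all 18 arrays (21.2% of all genes) and 7 with only the groups compared (20.8%). It was 3 after median centring (10.3%), 6 after quantile normalization (11.0%) and 0 with the acinar covariate (0.673%). With single arrays left out it was 7 to 19 (17.7% to 31.2%). In KO HFD compared with KO CD it was 21 (46.1% of all genes), 8 after centring (29.6%) and 9 after quantile normalization (16.3%). It was 20 under the acinar covariate (38.7%) and 17 to 23 over single arrays (37.2% to 47.7%). For the interaction it was 18 (32.6% of all genes), 2 after centring (8.0%) and 4 after quantile normalization (7.36%). With the acinar covariate it was 0 (0.0% of all genes), with a median of −0.26 against −0.27. Over single arrays it was 12 to 20 (23.9% to 36.4%). In KO CD compared with WT CD and in WT HFD compared with WT CD the count was 0 under every alternative run. At most 2.95% of all genes were called in these runs. Called differences above 0 after centring and after quantile normalization numbered 1 and 5 against WT HFD, and 9 and 9 against KO CD, none past the threshold. Among the genes given array by array these were, against WT HFD, Becn1 after quantile normalization (0.013) and Sqstm1 after centring (0.0027) and quantile normalization (0.0042). Against KO CD they were Becn1 after centring (0.0055) and quantile normalization (0.021) and Gabarap after centring (0.099). Ulk1, which is not one of these because it was not called as deposited, was 0.19 after quantile normalization and was called higher there. The cause was not tested. Leaving out KO CD islet 13 and WT CD islet 14 together, chosen after seeing the data, gave 19 called members in KO HFD compared with WT HFD (28.8% of all genes). Of the settings for single named genes, 2124 kept direction and side of the threshold, 125 lost the call, 27 gained it, 80 moved and 7 turned. No paired analysis was possible because no islet number occurs in more than 1 group. With 3 KO HFD arrays and probe signals on an unmeasured background, small differences cannot be resolved.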
